A study of Homo sapiens with 40 samples.

Results

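Replication-dependent histone genes encode the linker histone H1 and the core histones H2A, H2B, H3 and H4 that package newly made DNA. The genes were chosen by name: protein-coding genes on chromosomes 1 and 6 whose GENCODE symbol is that of a clustered H1, H2A, H2B, H3 or H4 gene, plus H4C16 on chromosome 12. This gave 69 genes, of which 67 had a counted gene ID among the 60708 genes of the count tables, and the other two, H2AC18 and H2AC19, were not analysed here. The 67 counted genes comprise 6 H1, 15 H2A, 18 H2B, 13 H3 and 15 H4 genes. On chromosome 6 there are 34 in the first cluster, 5 in the second and 16 in the third, and chromosome 1 holds 9 in a proximal and 2 in a distal cluster.

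These genes are transcribed mainly while DNA is replicated, by a machinery gathered at histone locus bodies around the coactivator NPAT, and stem-loop binding protein (SLBP) and the U7 snRNP complex shape the 3′ ends of their transcripts. Most of the mature mRNAs have no poly(A) tail but end in a conserved stem-loop, so a library made from total RNA captures them and one that selects polyadenylated RNA largely misses them. When DNA synthesis stops, the mRNAs are degraded.

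RNA was sequenced from 24 libraries, 3 in each of 8 groups, and the series' 16 ATAC-seq samples were not analysed here. MI-spheres were grown from MCF-10A, an immortalized breast epithelial cell line, and MII-spheres from its HRAS-transformed derivative MCF-10AneoT. Both were kept in ultra-low attachment plates and either left untreated (Ctrl) or stimulated with TGFβ1 at 2.5 ng/ml for 16 h. MDA-MB-231, a triple-negative breast cancer line, was grown as a monolayer. It was either wild type (WT) or labelled SLUG KO, that is, edited with CRISPR/Cas9 at the first exon of SNAI2, the gene of the transcription factor SLUG. The edited cells were expanded from single-cell colonies, and the number of clones is not given in the sources used here. In another sequencing batch, MDA-MB-231 cells of wild-type genotype received a scrambled control siRNA (Csi) or siRNAs against SMAD2, SMAD3 and SMAD4, the signal transducers of TGFβ (siSMAD2/3/4). The labels call the 3 libraries of a group biological replicates and do not say how the cultures were kept apart.

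Total counts per library ranged from 14124688 to 38406952. Levels are given as CPM, the count of a gene relative to the scaled total of its library, scaled within a batch. HRAS was 5.45-fold higher in MII Ctrl than in MI Ctrl. SMAD2, SMAD4 and SMAD3 fell 3.79-, 3.3- and 1.62-fold in siSMAD2/3/4. SNAI2 RNA was not lower in the libraries labelled SLUG KO, at 64.2, 58.2 and 65.1 CPM against 31, 21.7 and 34.1 CPM in WT. This checks the RNA of the gene and not its protein, so it does not decide whether the knockout worked. The authors state that they checked the knockout clones by ddPCR and immunoblotting. The 8 basal epithelial markers summed to between 1928 and 5422 CPM in spheres and between 1146 and 1570 CPM in the MDA-MB-231 groups. TP63 lay under 1 CPM in MII Ctrl, and KRT5 and KRT14 lay under 1 CPM in all MDA-MB-231 groups. The 5 mesenchymal markers summed to between 223 and 566 CPM in spheres and between 2784 and 3780 CPM in the MDA-MB-231 groups. The leukocyte genes PTPRC and CD3E were under 1 CPM in every group. WT replicate 2 stood apart from the other WT libraries. For SLUG KO against WT, the number of histone genes called and their summed level are given with and without it.

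The histone stem-loop was searched in the reference genome (GRCh38) as a 16-base pattern within 100 bases after the stop codon. It was present without mismatch in 69 of 69 histone genes and in 72 of 19605 protein-coding genes (0.367%), the other 3 being H2AX, H3-4 and H3-7. The histone genes carried 10 different versions, of which the commonest, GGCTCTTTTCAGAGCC, occurred in 40 genes. The stem-loop began 22 to 67 bases after the stop codon, with a median of 35. The sites below are shown because they are the 3′ ends of genes with large rises and of genes that fell under TGFβ in MII-spheres, and their 16 bases are in capitals.
H3C8 (chr6:26270918-26270943, minus strand): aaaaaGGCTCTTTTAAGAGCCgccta
H3C2 (chr6:26031592-26031617, minus strand): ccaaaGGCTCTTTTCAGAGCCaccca
H1-5 (chr6:27866792-27866817, minus strand): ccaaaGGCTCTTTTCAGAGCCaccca
H2BC14 (chr6:27815464-27815489, plus strand): ccaaaGGCTCTTTTCAGAGCCgtcca
H4C4 (chr6:26188710-26188735, minus strand): ccaacGGCCCTTTTCAGGGCCaccta
H2AC25 (chr1:228457364-228457389, minus strand): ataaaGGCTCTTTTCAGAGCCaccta
H4C11 (chr6:27824454-27824479, plus strand): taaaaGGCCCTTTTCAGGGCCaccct
H4C12 (chr6:27831173-27831198, minus strand): caaaaGGCCCTTTTTAGGGCCcccac
H2AC17 (chr6:27892699-27892724, minus strand): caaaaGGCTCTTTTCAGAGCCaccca
The 26 bases shown for H3C2 and H1-5 are identical although the genes encode different histones. H2AC17 and H2AC25, which fell, hold the same 16 capital bases as H3C2, H1-5 and H2BC14, which rose.

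Promoters of 64 histone genes were found in RefSeq (GRCh38.p14), each with 250 bases before and 50 after the gene start. They were searched on both strands for TATAAA, the TATA box, CCAAT, the box bound by NF-Y, ATTTGCAT, the octamer bound by OCT1, and AAACACA, an element of H1 promoters. TATAAA was in 65.6% of histone promoters and 11.5% of all 35116 promoters, and CCAAT in 84.4% and 34.6%. The classes differed: CCAAT was in every H1, H2A, H2B and H3 promoter found and in 23.1% of the H4 promoters. The octamer was in 11 of 16 H2A and 14 of 18 H2B promoters and in 1.77% of all promoters. These promoters are not all separate places. In 11 of 13 pairs of members that start head to head, the windows overlap by 253 to 293 bases. A site in such an overlap is counted for both genes of the pair. AAACACA was in 6 of 6 H1 promoters and in 5.64% of all promoters. These are matches of letters, not shown binding sites. The promoters of 3 genes with large responses are printed with the motif matches in capitals, on either strand.
H3C8 (chr6:26271364-26271663, minus strand): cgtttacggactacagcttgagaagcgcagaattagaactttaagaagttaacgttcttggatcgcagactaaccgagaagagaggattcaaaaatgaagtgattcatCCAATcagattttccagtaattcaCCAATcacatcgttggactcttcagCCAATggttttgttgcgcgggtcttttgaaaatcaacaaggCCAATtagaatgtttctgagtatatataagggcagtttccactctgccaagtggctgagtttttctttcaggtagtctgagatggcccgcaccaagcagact
H2BC14 (chr6:27814772-27815071, plus strand): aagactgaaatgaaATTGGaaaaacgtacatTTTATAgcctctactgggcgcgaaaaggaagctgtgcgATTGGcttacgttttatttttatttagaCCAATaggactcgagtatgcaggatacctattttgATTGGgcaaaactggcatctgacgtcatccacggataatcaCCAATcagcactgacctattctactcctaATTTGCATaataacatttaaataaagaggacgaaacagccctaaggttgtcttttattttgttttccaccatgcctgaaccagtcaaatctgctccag
H1-5 (chr6:27867539-27867838, minus strand): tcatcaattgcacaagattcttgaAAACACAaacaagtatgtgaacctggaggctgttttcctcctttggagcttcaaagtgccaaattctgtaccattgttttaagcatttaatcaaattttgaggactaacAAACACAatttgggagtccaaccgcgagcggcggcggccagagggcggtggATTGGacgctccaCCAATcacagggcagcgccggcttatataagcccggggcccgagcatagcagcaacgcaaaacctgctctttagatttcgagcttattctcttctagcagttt
The H3C8 window holds 4 CCAAT boxes and the H2BC14 window 5. The H2BC14 window is at the same time the promoter of H2AC14, which starts 244 bases away on the other strand. In the H1-5 window there are 2 matches each of CCAAT and AAACACA.

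Many members encode the same protein from different DNA. Among the 15 H4 genes there are 13 different coding sequences and 2 different proteins, 14 genes encoding the same one. The 13 H3 genes encode 2 proteins, the 17 H2A genes 11, the 18 H2B genes 14 and the 6 H1 genes 6. No stretch of 100 coding bases was shared with another member in 53 of 69 genes. H4C11 and H4C12, H4C14 and H4C15, and H3C14 and H3C15 share all of theirs, and H2AC13 and H2AC14 share 80.1% and 81.8% of their stretches of that length with each other, so the counts of these genes are uncertain. Exon bases are also shared with another gene in 13 members, among them H2AC7 (85.3% of its bases) and H2AC17 (71%, with H3C12). Reads were counted without regard to strand, and multi-overlapping reads were not counted.

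The summed level of the histone genes differed between groups of 1 batch. It was 3272, 3274 and 3462 CPM in MI Ctrl and 3160, 2990 and 3393 CPM in MI TGFβ. In MII Ctrl it was 2379, 2366 and 2413 CPM and in MII TGFβ 4695, 4325 and 4687 CPM. The MI groups overlap, whereas each MII TGFβ library lies above each MII Ctrl and each MI library. MDA-MB-231 cells of the same batch held more, with 8393, 7693 and 12298 CPM in WT. The siRNA libraries of the other batch held 128 ± 2.54 CPM (SD, n = 3) in Csi and 223 ± 4.96 CPM in siSMAD2/3/4. Per kilobase of counted exon, H1-2 and H1-4, linker histones, were highest in MI Ctrl (575 ± 34.7 and 352 ± 27 CPM per kb, SD, n = 3). The next levels per kilobase were those of the H4 gene H4C3 (237 ± 9.9), the H2B gene H2BC12 (215 ± 11.8) and the H2A gene H2AC20 (193 ± 14.7), and H2BC12 and H2AC20 differ by less than the sum of their SDs.

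**Figure D1:**
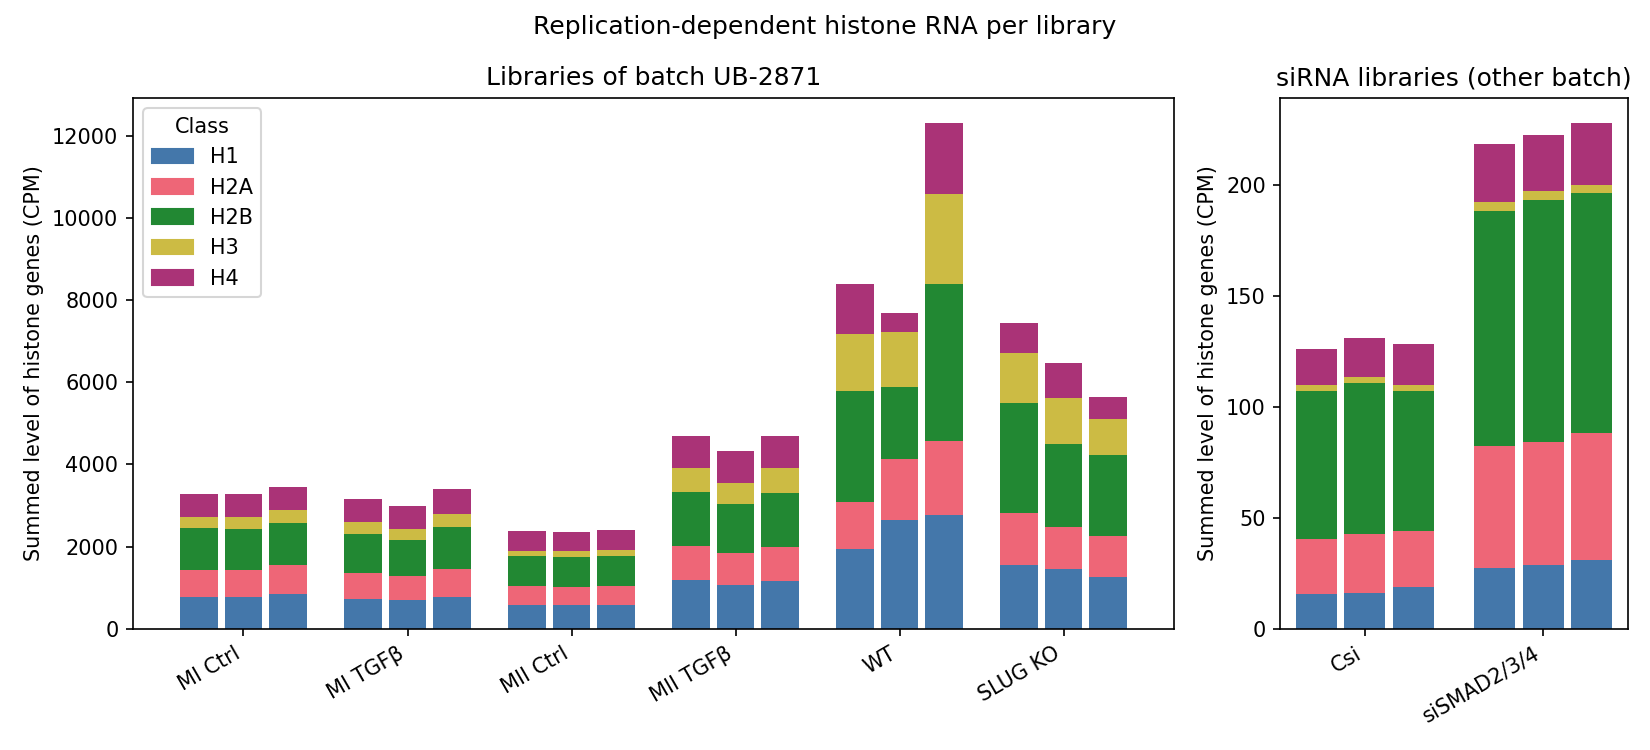
Stacked bars give the summed CPM of the counted histone genes in each of the 24 libraries, coloured by class, with 1 bar per library and a separate axis for the siRNA batch. MII TGFβ libraries reach 4325 to 4695 CPM against 2366 to 2413 CPM in MII Ctrl, and the Csi and siSMAD2/3/4 libraries stay under 229 CPM.

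**Figure D2:**
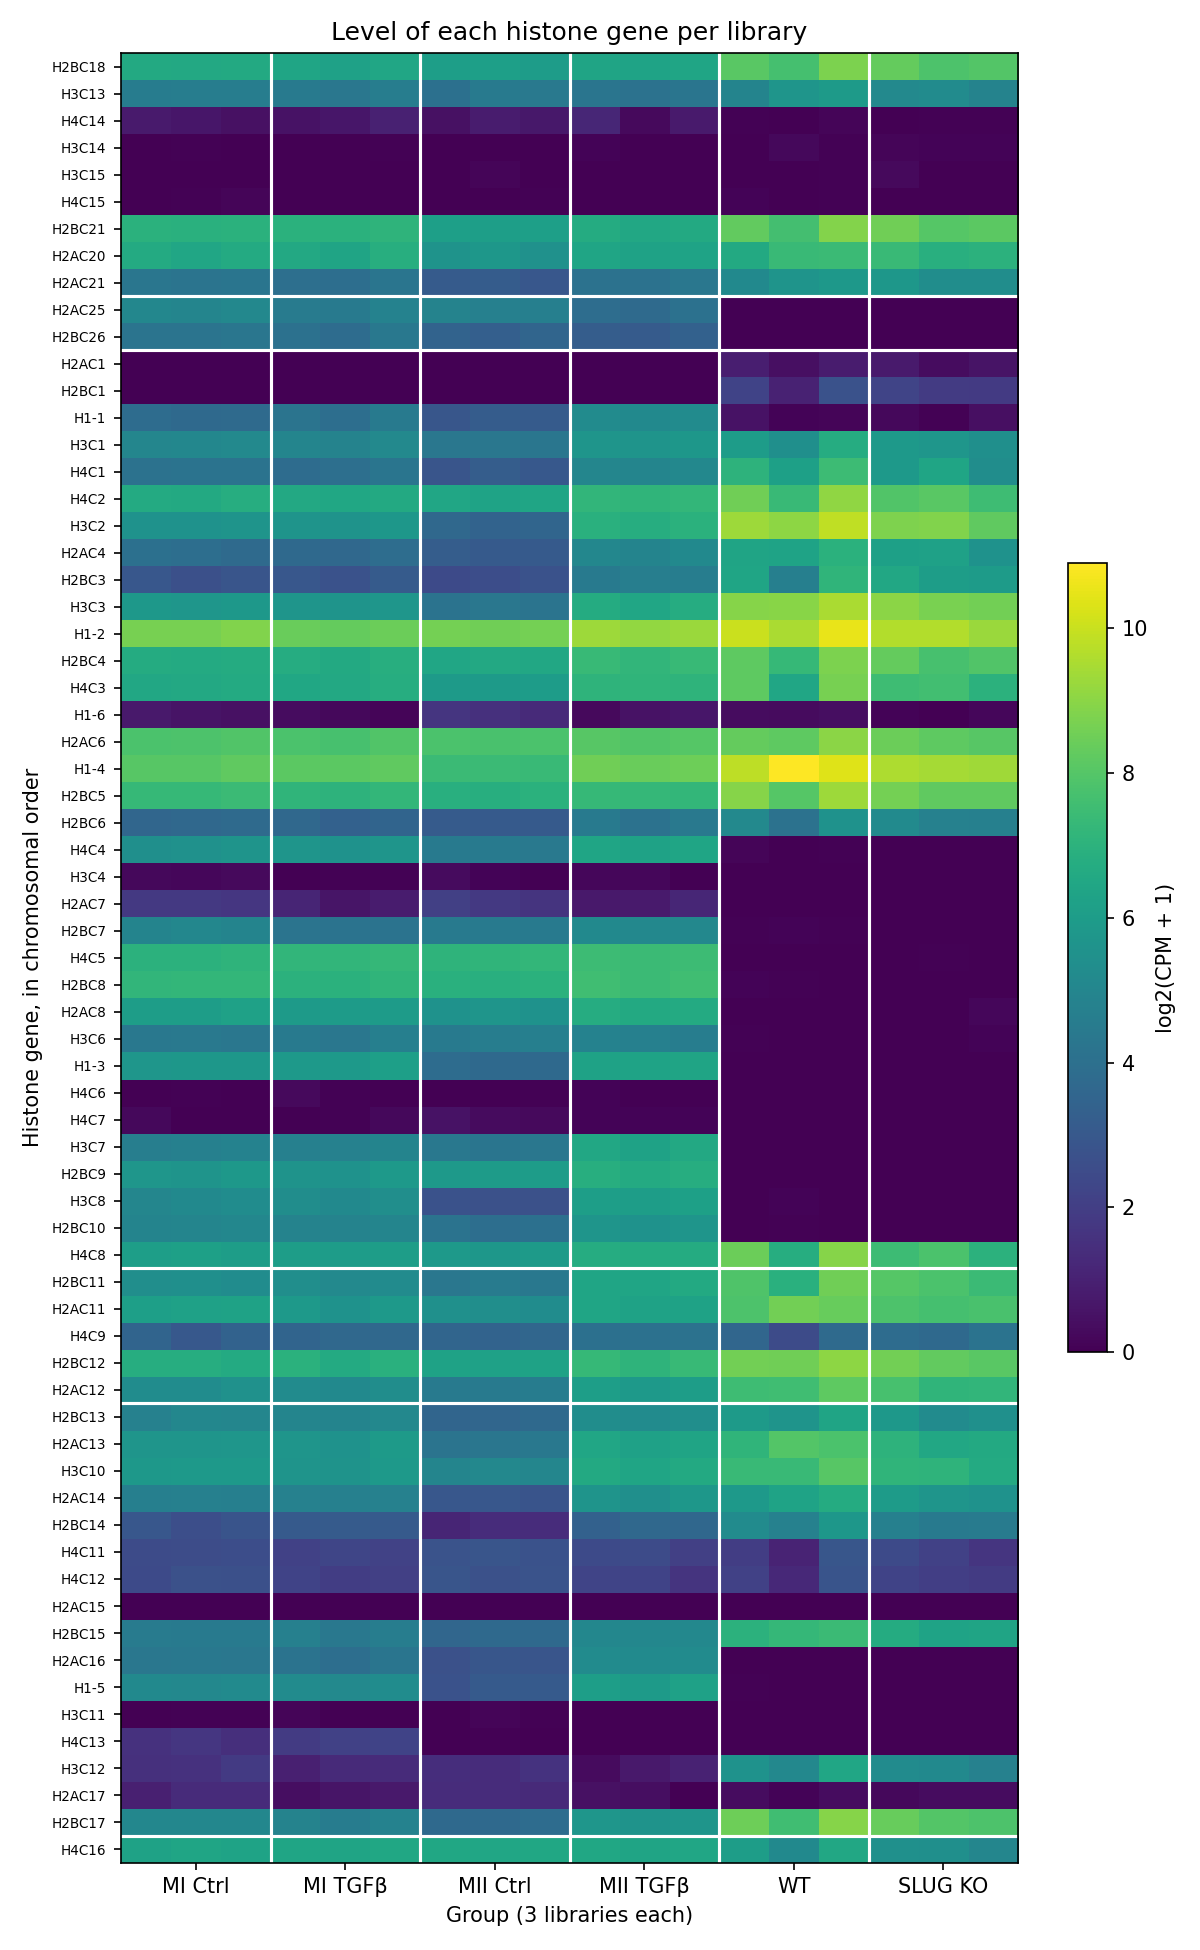
The heatmap shows log2(CPM + 1) of each of the 67 counted histone genes (rows, in chromosomal order with white lines between clusters) in the 18 libraries of one batch (columns, 3 per group). MII Ctrl is darker than MI Ctrl and MII TGFβ in most rows, and blocks of neighbouring genes are near 0 in WT and SLUG KO.

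In MII-spheres histone transcripts of all 5 classes rose with TGFβ. Of the 56 members that passed the low-count filter, 44 rose and 7 fell at an adjusted p under 0.05, with a median log2 fold-change of 1.01. Of all 16396 genes tested, 29.9% rose and 27.6% fell, with a median of -0.02. The summed level was 1.92-fold higher, and that of the H3 genes 3.8-fold.

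The replication-dependent H3 genes encode the H3.1 and H3.2 proteins that are deposited behind the replication fork. H3C8 was at 5.71, 5.51 and 5.5 CPM in MII Ctrl and at 68.5, 65 and 72.9 CPM in MII TGFβ, a log2 fold-change of 3.60 ± 0.08 (SE; edgeR's quasi-likelihood test, adjusted p = 3.35e-39). H3C2 stood at 11.9, 9.96 and 10.8 CPM and then at 116 ± 7.84 CPM (SD, n = 3; log2 fold-change 3.42 ± 0.069, adjusted p = 4.17e-41). Both genes were lower in MII Ctrl than in any MI library and higher in MII TGFβ than in any of them. H3C3 (2.44), H3C7 (2.22), H3C10 (1.52) and H3C1 (1.41) also rose, while H3C6 (0.10) and H3C13 (-0.16) did not pass the test. The H3 genes supplied 6.16% ± 0.23 (SD, n = 3) of the histone counts in MII Ctrl and 12.2% ± 0.4 in MII TGFβ.

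The linker histones bind DNA between nucleosomes. H1-5 was at 5.71, 7.6 and 7.54 CPM in MII Ctrl and at 67.8, 60.4 and 73.9 CPM in MII TGFβ (log2 fold-change 3.22 ± 0.084). H1-3 was at 13.6, 12.3 and 12.1 CPM and then at 76, 79.8 and 80.6 CPM (2.62 ± 0.068), and H1-1 rose by 2.25 on the log2 scale. H1-2, the most abundant member, rose less, from 390, 373 and 395 CPM to 630, 561 and 619 CPM (0.62 ± 0.037), and H1-4 lay between (1.05). The rises within this class thus ranged from 0.62 to 3.22, and none of these genes overlapped between groups. H1-6, the testis-type H1, was near the floor and fell from 2.23, 1.86 and 1.49 CPM to 0.199, 0.458 and 0.602 CPM.

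Among the H2A and H2B genes, whose products form the dimers at both faces of the nucleosome, 10 of 13 and 16 of 17 tested members rose. H2AC14 and H2BC14, which share the promoter printed above, both rose by 2.83 on the log2 scale, the counts of H2AC14 being uncertain beside H2AC13. H2AC14 went from 6.83, 6.87 and 6.05 CPM to 48.7, 41.9 and 53.3 CPM, and H2BC14 from 1.18, 1.63 and 1.6 CPM to 9.38, 11.8 and 11.6 CPM. H2AC6, the H2A gene with the highest level per kilobase in MII Ctrl (133 ± 2.95 CPM per kb), rose only by 0.18 ± 0.038, from 225, 216 and 223 CPM to 264, 246 and 258 CPM. H2AC20 (0.71), H2AC8 (1.06), H2BC12 (0.98), H2BC4 (0.74) and H2BC5 (0.35) lay between them.

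H4 genes had the smallest median of the classes, 0.55, with 7 of 11 tested members higher and 2 lower. H4C4 rose from 21.3, 21 and 20.4 CPM to 82.7, 76.5 and 83.4 CPM (1.93 ± 0.062), and H4C3 by 1.12. H4C5 rose from 133, 140 and 147 CPM to 177, 171 and 176 CPM (0.29 ± 0.041). H4C16, the only member on chromosome 12, was at 87.5 to 90.2 CPM without and 82.4 to 88.8 CPM with TGFβ (-0.07 ± 0.048, adjusted p = 0.202).

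The 7 members that fell were H2AC17 (-2.67), H1-6 (-2.14), H2AC7 (-1.55), H3C12 (-1.42), H2AC25 (-0.92), H4C12 (-0.92) and H4C11 (-0.56). All but H2AC25 averaged at most 4.57 CPM over the 12 sphere libraries, whereas the 44 that rose averaged at least 6.5 CPM. H2AC25, a member of the distal chromosome 1 cluster, was at 28.1, 26.2 and 25.2 CPM in MII Ctrl and 13.8, 12.7 and 15.9 CPM in MII TGFβ. Its neighbour on the other strand, H2BC26, was at 8.73 to 10.7 CPM and 7.66 to 9.37 CPM and did not pass the test. Exons of H2AC7, H2AC17 and H3C12 overlap other genes, and H4C11 and H4C12 share their coding bases, as given above.

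By position, 26 of 29 tested genes of the first chromosome 6 cluster rose, 5 of 5 of the second, 9 of 13 of the third and 4 of 6 of the proximal chromosome 1 cluster. Neither of the 2 distal chromosome 1 genes rose. Genes annotated with single-exon transcripts only had a median of 1.28 (36 of 42 higher), and those with a multi-exon transcript one of 0.23 (8 of 14 higher). Pairs of members that start head to head lie 169 to 318 bases apart. Both genes were tested in 11 such pairs, both rose in 7, and the directions were opposite in 3, each of which contains one of the low-level genes H2AC7, H2AC17 and H3C12.

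Other genes of the replication program moved in the same libraries. Of 20 S phase genes 19 rose, with a median of 1.36, among them RRM2, a ribonucleotide reductase subunit (2.97), CDC6, a helicase loader (2.40), PCNA, the sliding clamp (1.16), and the helicase genes MCM6 (1.70) and MCM5 (1.48). Their summed level was 348 to 358 CPM in MII Ctrl and 808 to 810 CPM in MII TGFβ. Of 21 histone chaperone and assembly genes 15 rose and 1, ATRX (-0.19), fell. ASF1B, which hands H3-H4 to the assembly factors, rose by 2.73, HJURP, the CENP-A chaperone, by 2.21, and MCM2 by 1.92. Of 20 genes for histone mRNA transcription and processing 10 rose and 5 fell, none by more than 0.66, which was the value of SLBP. Of the 11 genes tested from a list of replication-independent histones, 6 rose and 2 fell. The list includes H2AX, although H2AX carries the histone stem-loop, as given above. CENPA (1.90) and H2AZ1 (0.82) were highest, and H2AJ fell by 0.33.

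RN7SL1, a short RNA without a long poly(A) tail that is not a histone, moved with these results. It was at 34971, 30909 and 35013 CPM in MII Ctrl and 68391, 61113 and 67642 CPM in MII TGFβ (log2 fold-change 0.94 ± 0.038). Its fold change, 1.92, equals that of the summed histone level. Single histone genes ranged from -2.67 to 3.60 on the log2 scale in the same comparison. The part of RN7SL1 in the histone result was not tested. The summed markers of fibroblasts were at most 0.402 CPM in both MII groups. Those of endothelial cells were 113 to 116 CPM in MII Ctrl and lower in each MII TGFβ library (lowest 94.2 CPM), and those of leukocytes 188 to 192 CPM and 170 to 188 CPM, with PTPRC and CD3E under 1 CPM. In bulk RNA, more cells in S phase and more histone RNA per cell cannot be told apart.

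In MI-spheres the histone genes showed no comparable rise. Of 56 members tested 3 rose and 24 fell, against 28.7% and 27.4% of the 16863 genes tested. The median was -0.14, and that of all genes -0.02. The summed level was 0.954 of that in MI Ctrl, with overlapping libraries. This direction depends on the processing: with a correction for gene length 23 members were higher and 11 lower and the median was 0.11, while all genes then had 27% higher and 28.3% lower. DESeq2 called 1 higher and 12 lower.

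H1-2 was at 408, 404 and 450 CPM in MI Ctrl and 334, 322 and 346 CPM in MI TGFβ (-0.41 ± 0.053, adjusted p = 1.39e-06). H2BC7 had the smallest adjusted p of the falls, from 29.5, 31.9 and 29.5 CPM to 17.5, 16.6 and 16.7 CPM (-0.92 ± 0.076). In MII-spheres the same gene rose by 0.63. H1-1 was at 13.4, 12.1 and 12.8 CPM in MI Ctrl and 17.5, 14.4 and 20.9 CPM in MI TGFβ (0.39 ± 0.11), and H1-3 rose by 0.16. H3C8 (0.07 ± 0.079) and H3C2 (0.02 ± 0.063), the genes with the largest rises in MII-spheres, did not pass the test.

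H4C13 was counted only in MI-spheres. Its raw counts were 50, 48 and 35 in MI Ctrl and 50, 75 and 86 in MI TGFβ, and the test called it higher. They were 0, 1 and 0 in MII Ctrl and 0 in all MII TGFβ, WT and SLUG KO libraries. H4C13 lies beside H1-5, H2AC16 and H3C11, of which H1-5 and H2AC16 were well counted in MII-spheres.

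Of the 55 members tested in both lines, 25 rose in MII-spheres without passing the test in MI-spheres, 17 rose in MII- and fell in MI-spheres, and 2 rose in both. H2AC7, H2AC17, H2AC25, H3C12, H4C11 and H4C12 fell in both. Of all genes tested, 29.9% rose and 27.6% fell in MII-spheres, and 28.7% rose and 27.4% fell in MI-spheres. The shares of all genes with these combinations were not counted. Some of the falls in MI-spheres are lost or reversed with the correction for gene length. RN7SL1 was 72716 to 93741 CPM in MI Ctrl and 95151 to 105159 CPM in MI TGFβ (0.18 ± 0.079, adjusted p = 0.0613). The S phase genes summed to 698 to 708 CPM and 677 to 731 CPM in these groups, with 3 higher and 7 lower. Of the chaperone genes 9 rose and 3 fell in MI-spheres, and of the processing genes 9 rose and 5 fell.

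**Figure D3:**
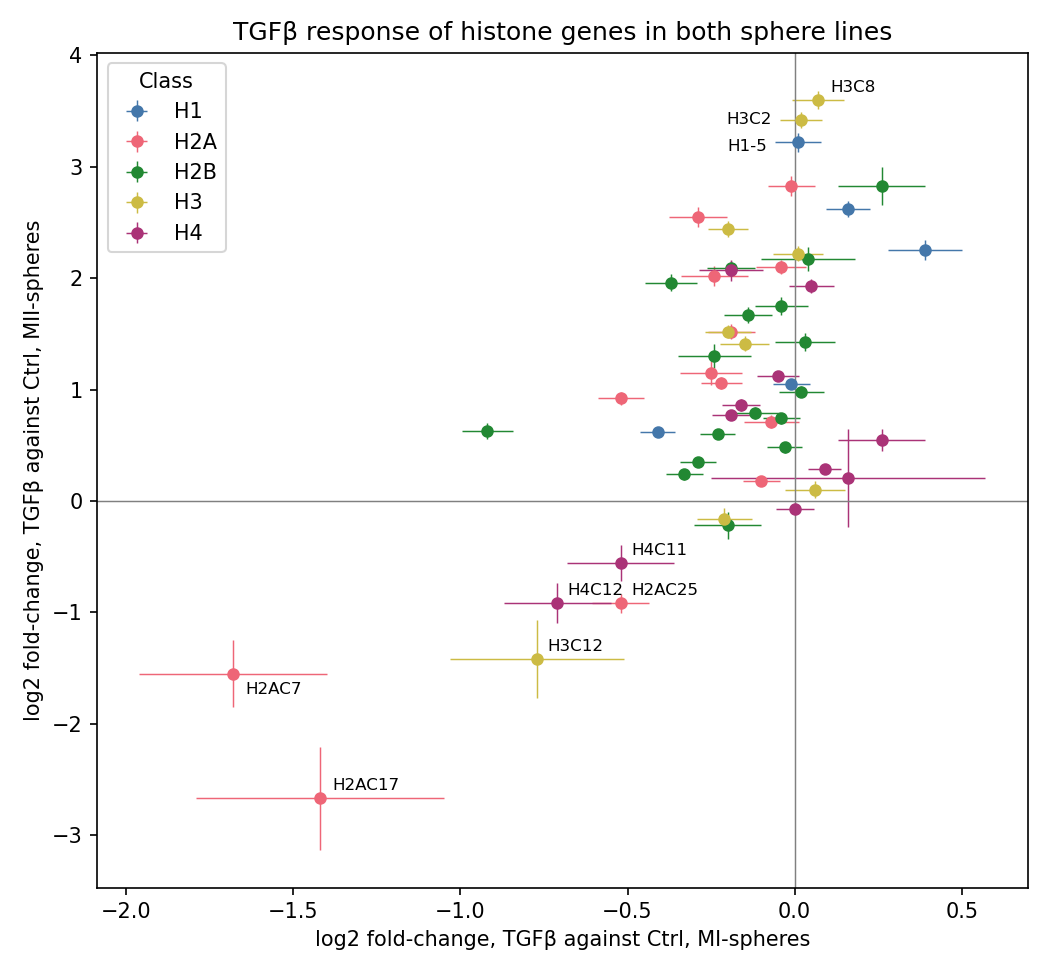
Each point is 1 histone gene tested in both lines, with its log2 fold-change under TGFβ in MI-spheres on the x axis and in MII-spheres on the y axis, bars of 1 SE and colours for the class. Most points lie high on the y axis and near 0 on the x axis, and H3C8, H3C2 and H1-5 lie highest, at 3.60, 3.42 and 3.22.

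The interaction of line and TGFβ tests whether the response differs. Of 57 members 43 responded more positively in MII- than in MI-spheres and 1 more negatively, against 12.6% and 9.75% of the 18591 genes tested. The median difference in log2 fold-change was 1.18. It was 3.54 ± 0.12 for H3C8, 3.40 ± 0.099 for H3C2 and 3.23 for H1-5. Among H2B genes 16 of 17 were called and among H4 genes 6 of 12. H2AC25 was the one called negative (-0.40 ± 0.13, adjusted p = 0.0185), and the call is lost without MII Ctrl replicate 1 (adjusted p = 0.0575) or MII TGFβ replicate 2 (adjusted p = 0.0638). H3C6 (0.05), H3C13 (0.06) and H4C16 (-0.06) did not pass. All 20 S phase genes were called positive (median 1.76), and of the 21 chaperone genes 9 were called positive and 3 negative. RN7SL1 had a difference of 0.78 ± 0.087, and its part was not tested.

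Without TGFβ, MII-spheres held less histone RNA than MI-spheres. Of 57 members 6 were higher and 43 lower in MII Ctrl, against 31.7% and 32.5% of 17862 genes, with a median of -0.64. This comparison shares its Ctrl libraries with those above, so for a given member the difference and the TGFβ response are not independent. H3C8 was at 31, 35.2 and 38.2 CPM in MI Ctrl, and its log2 difference was -2.63 ± 0.091. H3C2 was at 45.4, 46.3 and 49.2 CPM (-2.12 ± 0.073), H1-5 at 35.5, 32.6 and 36.5 CPM (-2.29) and H1-3 at 51.4, 53 and 54.2 CPM (-2.06 ± 0.068). H1-2 (-0.12), H2BC4 (-0.15) and H2AC25 (-0.26) differed least among the called genes that were lower. The higher ones were H1-6 (1.78), H4C11 (0.33), H2BC9 (0.25), H3C6 (0.25), H4C16 (0.16) and H4C5 (0.13). H4C13 was called lower on the counts given above. All 20 S phase genes were lower, with a median of -1.09, and RN7SL1 was lower by 1.31 on the log2 scale (-1.31 ± 0.049).

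With TGFβ, MII-spheres held more. Of 55 members 41 were higher and 5 lower in MII TGFβ than in MI TGFβ, against 31.1% and 31.6% of 15878 genes, with a median of 0.63. H3C7 was at 26.2, 26.4 and 28.8 CPM in MI TGFβ and 90.7, 77.7 and 95 CPM in MII TGFβ (1.77 ± 0.074). H3C2 was at 48.9, 47.9 and 53.7 CPM in MI TGFβ (1.29 ± 0.061), and H2BC3 had the largest of the positive differences, 1.85. The lower ones were H4C13, H2BC26 (-0.86), H2AC25 (-0.65), H2BC21 (-0.31) and H2AC20 (-0.18), and 4 of these lie in the chromosome 1 clusters, where none of the 8 tested members was higher. In the first and second chromosome 6 clusters 27 of 28 and 5 of 5 tested members were higher. RN7SL1 was lower here (-0.53 ± 0.058), opposite to most histone genes, and 15 of 20 S phase genes were higher.

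Of the 67 genes 36 were detected in both spheres and MDA-MB-231 cells of the same batch, with at least 100 counts summed over 12 and 6 libraries. Another 18 were detected in spheres and not in MDA-MB-231, 1 (H2BC1) the other way round, and 12 fell between these limits. All but 1 of these 18 lie in 3 runs of neighbours, the exception being H4C14, with 157 counts in spheres and 6 in MDA-MB-231, whose coding bases are shared with H4C15. In the first chromosome 6 cluster, 15 neighbours from H4C4 to H2BC10 (chr6:26188710-26273412) had 159296 counts over the spheres and 21 over WT and SLUG KO. They include H4C5, H2BC8, H1-3 and H3C8, whose stem-loop and promoter are printed above. The members on either side, H2BC6 and H4C8, had 4441 and 35326 counts in MDA-MB-231.

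A second run holds H2AC16, H1-5, H3C11 and H4C13 (chr6:27865317-27873534), with 12980 counts in spheres and 1 in MDA-MB-231, between H2BC15 (17136) and H3C12 (6363). The remaining run is the pair H2AC25 and H2BC26 (chr1:228434777-228463104), with 9199 and 0 counts. Inside the first run, the processed pseudogene ENSG00000217275 had 658 counts in spheres and 0 in MDA-MB-231. ENSG00000282988 had 304 and 2, but it spans H3C4 and H2AC7 and is not a separate place. Genes beyond the first run were counted in both: HFE had 3057 and 4432 counts, and BTN3A2 5938 and 6169. Near the second run this differed by gene. Before it, the long non-coding RNA ENSG00000287252 had 415 counts in spheres and 0 in MDA-MB-231, and the pseudogene H4C10P 331 and 9. After it, ZSCAN16-AS1 had 734 and 1196. In the siRNA batch, also MDA-MB-231, the first run had 6, the second 0 and the H2AC25 pair 11 counts over 6 libraries. These libraries cannot check the runs, since they captured few histone transcripts anywhere. H4C2, with 42763 counts over WT and SLUG KO, had only 12 there.

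**Figure D4:**
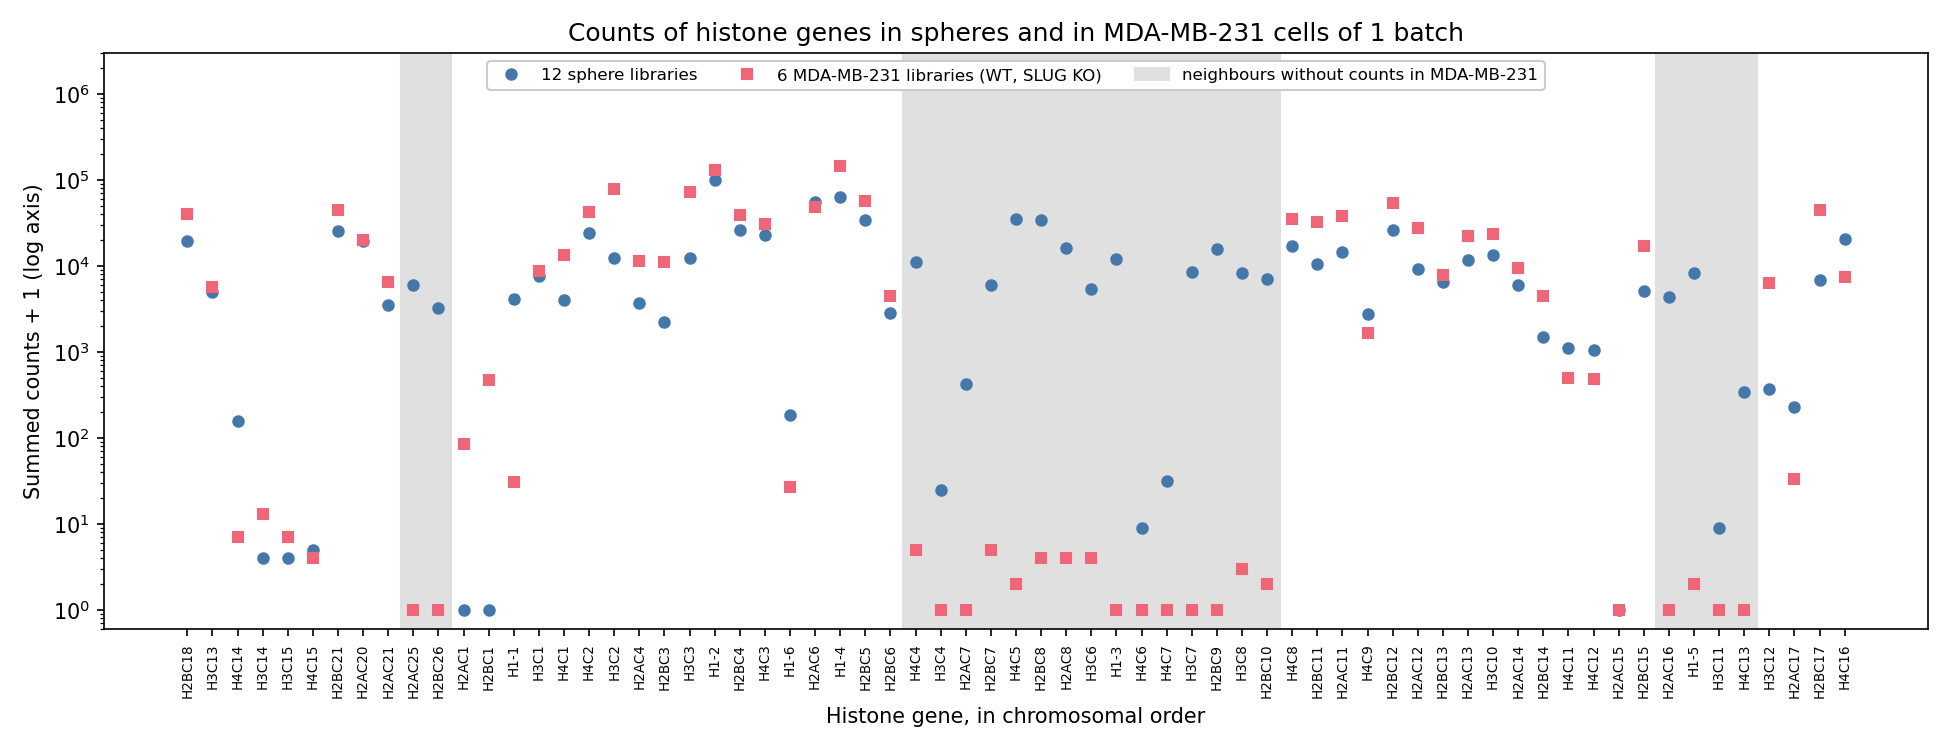
For each counted histone gene in chromosomal order, circles give the counts summed over 12 sphere libraries and squares those over the 6 WT and SLUG KO libraries, as counts + 1 on a log axis. Grey bands mark runs of 15, 4 and 2 neighbours in which squares drop to under 10 counts while most circles stay above 100.

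None of the 38 tested members was called with edgeR between the libraries labelled SLUG KO and WT, although nearly all were on the lower side. The background was 1.45% of 17428 genes higher and 1.89% lower. The log2 fold-change was negative for 37 of 38 members, the exception being H4C9 (0.56). The median was -0.49, against -0.05 over all genes tested. The share of all genes with a negative value was not counted. At an unadjusted p under 0.05, 9 members were lower and 0 higher, where 19.1% of all genes passed in either direction. The smallest adjusted p was 0.0828, for H2BC15, which was at 126, 154 and 173 CPM in WT and 87.5 ± 13.2 CPM (SD, n = 3) in SLUG KO. DESeq2 called 1 member, H1-4, lower (-0.93).

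The WT libraries differ from one another more than the libraries labelled SLUG KO do. Their sums were 8393, 7693 and 12298 CPM, and those of SLUG KO 7435, 6458 and 5631 CPM, so the groups do not overlap and the ratio of the means is 0.688. WT replicate 2 had a different make-up. In it H1-4 was at 1903 CPM (907 and 1298 in the other WT libraries), H4C3 at 86.3 CPM (288 and 404), and the H4 genes gave 6.2% of the histone counts (14.5% and 14%). Without this library 29 members were called lower and the ratio was 0.629, but 16.8% of all genes were then higher and 14.4% lower. RN7SL1 was at 10423, 6234 and 20758 CPM in WT and at 18083, 23900 and 13182 CPM in SLUG KO. With all WT libraries included, RRM2 (-1.23) was the only S phase gene called lower.

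In the siRNA batch, siSMAD2/3/4 libraries held more of the few histone transcripts they captured. Of 21 members that passed the filter 12 rose and 1 fell, against 16.3% and 19.7% of 17696 genes, with a median of 0.74 and 0.00 over all genes. The summed level was 1.74-fold higher, with every siSMAD2/3/4 library above every Csi library. Histone genes had only 3696 to 7955 counts per library, and RN7SL1 was at 1.25 to 2.22 CPM in these 6 libraries, against 6234 to 23900 CPM in the other MDA-MB-231 libraries. Of 11 short RNAs without poly(A) tails that were checked, the other 10 lay under 1 CPM in every group, so only RN7SL1 could be read. The labels name the same total RNA kit for both batches, and the low levels of histone transcripts and RN7SL1 go against that label. The siSMAD2/3/4 values thus cover only the histone transcripts captured there and are not on the scale of the sphere values.

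H2AC6 was at 20.8, 22.1 and 20.7 CPM in Csi and 50.1, 50.4 and 52.7 CPM in siSMAD2/3/4 (1.27 ± 0.06, adjusted p = 8.32e-17). H2BC5 was at 12.2, 12.7 and 12 CPM and then at 30.9, 28.9 and 28.7 CPM (1.26 ± 0.073, adjusted p = 7.03e-15). H1-2 was at 14.7, 16 and 18.1 CPM and 26.9, 28 and 30.5 CPM (0.80 ± 0.077). In each of these genes all siSMAD2/3/4 libraries lie above all Csi libraries. H2BC4 (1.36), H2BC21 (1.21), H4C8 (1.09), H2BC12 (0.41) and H4C9 (0.44) rose as well, and so did H2BC6, H2BC15, H3C10 and H2AC13, which were at 3.16 CPM or less.

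H3C2 fell, from 0.75, 0.871 and 1.01 CPM to 0.329, 0.44 and 0.595 CPM (-0.96 ± 0.35, adjusted p = 0.0335). Its call is lost with DESeq2, with the flow cell as a term, or without Csi replicate 2 or 3 or siSMAD2/3/4 replicate 1 or 2. With the flow cell as a term 10 members rose and 0 fell. The file names place siSMAD2/3/4 replicates 1 and 2 on another flow cell than the other siRNA libraries.

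The members counted in Csi are a particular part of those in WT. The 12 genes at 1 CPM or more in Csi gave 94.6% of the Csi sum and 44.2% of the WT sum. A multi-exon transcript is annotated for 6 of these 12 and for 10 of the other 55 members. The ratio of WT to Csi levels was 10 for H2BC12, 17.5 for H2AC6, 66.2 for H1-2 and 188 for H2BC4. H4C9 was the exception, at 9.52 CPM in WT and 12.4 CPM in Csi. The WT values here are means over all WT libraries, with replicate 2 included. The batch and the treatment with siRNA cannot be told apart in these ratios.

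The partner lists moved the other way from the captured histone transcripts after SMAD2/3/4 depletion. All 20 S phase genes fell, with a median of -0.92, and their sum went from 2038, 2123 and 2117 CPM to 1113, 1126 and 1085 CPM. MCM4 (-1.09), MCM3 (-0.96), CDC6 (-1.13) and RRM2 (-0.94) were among them. Of 20 chaperone genes tested 13 fell and 0 rose, led by ASF1B (-1.11) and MCM2 (-1.08). Of the 20 processing genes 11 fell, among them LSM11, a U7 snRNP subunit (-1.01), and SLBP (-0.53), and TUT7, a terminal uridylyltransferase, rose (0.17). Of the 11 genes tested from the list of replication-independent histones 9 fell, H2AZ1 by 0.72 and CENPA by 0.93. In MII-spheres under TGFβ the S phase list and the histone genes had moved in the same direction. The siRNA libraries captured only a small part of the histone transcripts, so these directions are not of the same measure and cannot be compared.

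**Figure D5:**
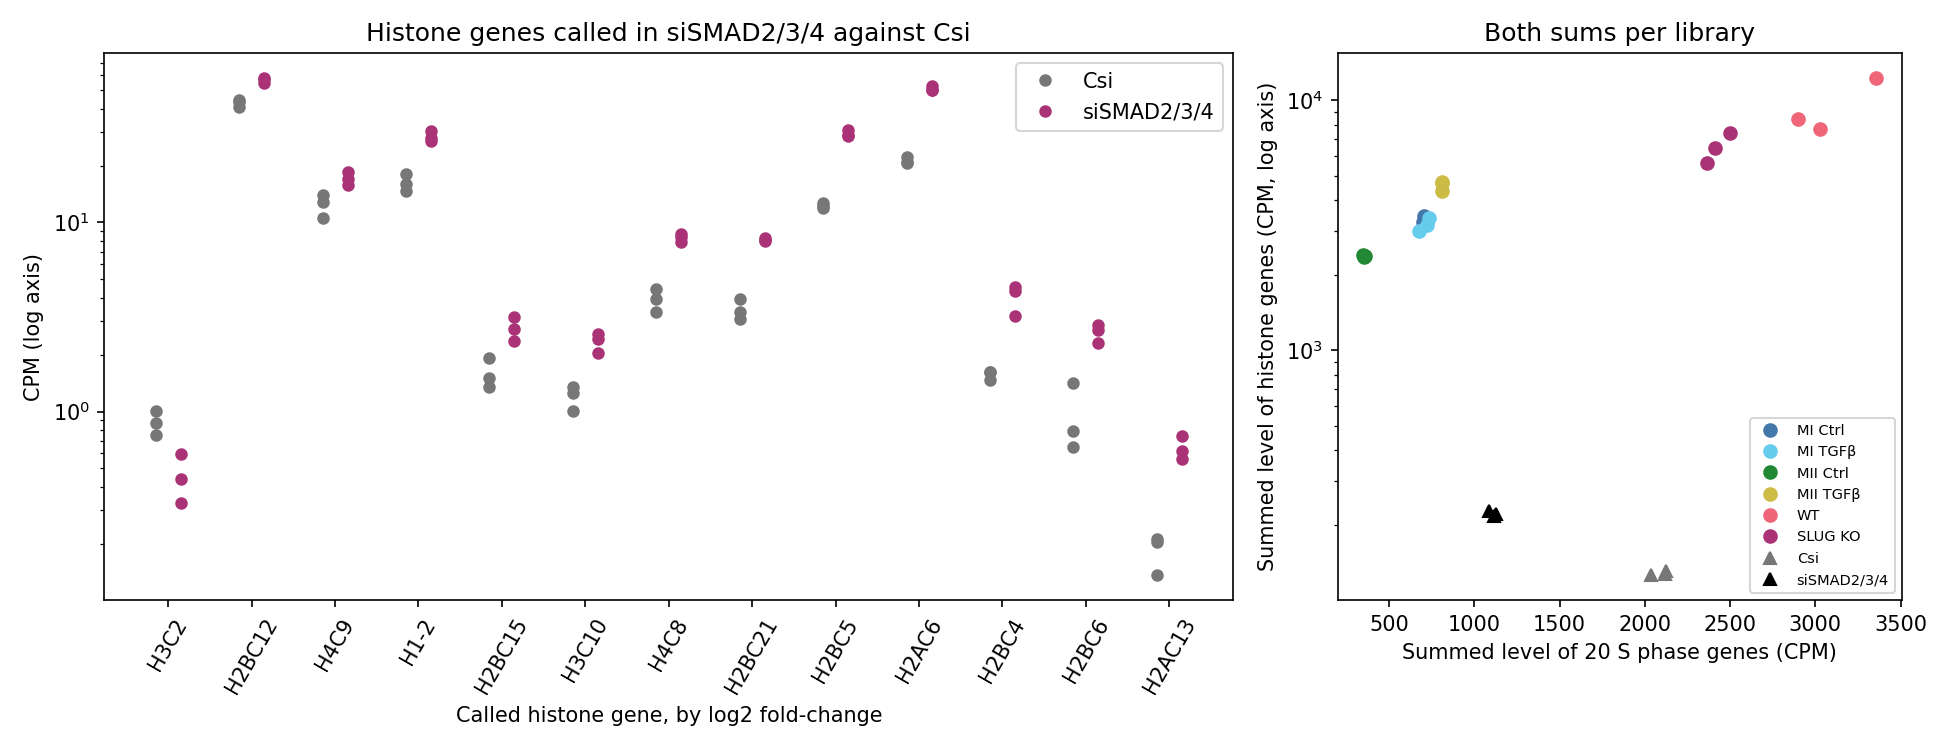
The left panel shows, on a log axis, the CPM in each Csi and siSMAD2/3/4 library of the 13 histone genes called there; the right panel plots the summed histone level (CPM, log axis) against the summed level of 20 S phase genes (CPM) in all 24 libraries. The 12 genes called higher have no Csi library above a siSMAD2/3/4 library, and in the right panel Csi and siSMAD2/3/4 lie far below the other batch.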

How the data were processed

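Per the labels, total RNA was depleted of ribosomal RNA (TruSeq stranded, RiboZero Gold), which the near absence of RN7SL1 from the siRNA libraries goes against. After trimming (Trimmomatic) and two-pass STAR alignment to GRCh38, the authors counted fragments on GENCODE 38 exons with featureCounts 2.0.0 (mapping quality at least 30, strand ignored, multimapping and multi-overlapping reads left out), and deposited raw counts without normalization. H2AC18 and H2AC19 were not analysed here.

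Symbols came from GENCODE 44. A comparison used only its 6 libraries (12 for the interaction) and was tested with edgeR 4.0.16 in R 4.3.3: filterByExpr, TMM, the quasi-likelihood test and Benjamini-Hochberg adjustment over all genes tested. Called means adjusted p under 0.05. An exact permutation of 3 against 3 libraries cannot go below p = 0.1. CPM used TMM within a batch. DESeq2 1.42.0 was an alternative. Scripts were tested on simulated data.

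Members and lists were chosen with earlier results of these data known. The rule for naming took, per class, the 3 genes highest per kilobase in spheres, members opposite to the majority in MII-spheres, and the 2 smallest adjusted p per direction and comparison; other genes named were chosen after their values were seen. Partner lists were named by smallest adjusted p, with exceptions chosen by role. Equal replicate numbers did not pair libraries (correlations of -0.185 to 0.0517).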

Additional observations from a re-analysis of the deposited data

Results flagged for a closer look

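The response to TGFβ differed between MII- and MI-spheres by the interaction test of edgeR (adjusted p under 0.05) for 43 histone genes in the positive and 1 in the negative direction. The difference in log2 fold-change was 3.40 for H3C2 and 3.54 for H3C8, which led the positive direction by adjusted p, and -0.40 for H2AC25, the negative one. RN7SL1, which is no histone, had a difference of 0.78.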

How the results depend on the processing

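Of 3432 combinations of a called member (230 over all comparisons) and an alternative, 3294 kept direction and call, 124 lost the call and 14 reversed, all in MI-spheres. SLUG KO against WT had no called member and does not enter this total. Members that an alternative filtered out are not counted in it either. With the gene-length trend as offset MI TGFβ against MI Ctrl had 23 members higher and 11 lower (main 3 and 24), and with the replicate block as well 24 and 12. The median then was 0.11 in both fits, and the reversed genes were H3C13 (0.15 in both), H2AC21 (0.10), H2AC4 (0.11, and 0.12 with the block), H3C3 (0.16), H2AC8 (0.13), H2AC12 (0.17) and H2AC16 (0.07). DESeq2 called 1 higher and 12 lower there, 3 higher in MII Ctrl against MI Ctrl, 1 lower in SLUG KO and 0 lower in siSMAD2/3/4. All 12 sphere libraries in 1 fit gave 5 higher in MI-spheres, at least 10 counts in every library gave 3 lower in MII TGFβ against MI TGFβ, and the flow cell as a term gave 0 lower in siSMAD2/3/4. The cause of these changes was not tested.

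The log2 ratio of summed levels without TMM was 0.78 for TGFβ in MII-spheres (main 0.94), -0.28 in MI-spheres, -0.38 for MII Ctrl against MI Ctrl and 0.68 with TGFβ. Without members with over 1000 exon bases it was 1.15 for TGFβ in MII-spheres, -0.62 for MII Ctrl against MI Ctrl and 0.67 for siSMAD2/3/4.

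Leaving out 1 library at a time gave 44 to 44 higher and 7 to 8 lower for TGFβ in MII-spheres, 2 to 3 and 17 to 31 in MI-spheres, 4 to 6 and 42 to 44 for MII Ctrl against MI Ctrl, 40 to 43 and 4 to 6 for MII TGFβ against MI TGFβ, 42 to 43 and 0 to 1 for the interaction, 0 to 0 and 0 to 29 for SLUG KO, where only WT replicate 2 gave 29, and 12 to 13 and 0 to 1 for siSMAD2/3/4. The replicate block alone gave 44 and 7 in MII-spheres, 4 and 27 in MI-spheres and 12 and 1 in siSMAD2/3/4, and since equal numbers do not pair the libraries it has no weight of its own. The 3 libraries per group, and the few histone counts of the siRNA batch, limit what could be called.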
